A study of Rattus norvegicus with 2 samples.

Results

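Solute carriers are membrane proteins that move sugars, amino acids, organic acids, ions, nucleosides and metabolites across the plasma membrane or the inner mitochondrial membrane. The transcripts described here are 114 rat genes, read by 169 probe sets, out of 4736 genes and 7006 probe sets that carry exactly 1 gene symbol in the platform annotation. They were chosen by name: every symbol made of Slc, a family number, a letter and a member number. Slc4a1, Slc8a1, Slc25a4, Slc25a5 and Slc25a20 were left out, and the choice was made with earlier results of these data known. By substrate they fell into 7 glucose and hexose transporters, 21 amino acid transporters, 6 monocarboxylate transporters, 30 ion transporters and 50 others, of which 9 were mitochondrial carriers.

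The hearts came from Dahl salt-sensitive rats, all male and 17 weeks old, of a strain in which a salty diet raises blood pressure. RNA of 1 sample from the high-salt diet, labelled as a rat with chronic heart failure, and RNA of 1 sample from the low-salt diet were each read on 1 array with a single colour. The labels do not say whether a sample was 1 animal or a pool, or which chamber was taken. Replicates are lacking (1 array per diet), so each difference is between these 2 arrays and has no p-value. A change in transcript per cell and a change in the share of cells that hold it cannot be told apart in whole tissue.

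In the heart, glucose enters myocytes mainly through Slc2a4 (GLUT4), which insulin and contraction bring to the surface, and Slc2a1 (GLUT1), which sits there without such a signal. Lactate, pyruvate and ketone bodies cross with protons through monocarboxylate transporters. Large neutral amino acids are exchanged by a light chain such as Slc7a5 bound to the heavy chain Slc3a2, and bicarbonate and chloride exchangers help to set the pH of the cell.

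The largest ratios, as described below, were those of Slc3a2, Slc2a1 and Slc16a1, and Slc6a6 is shown beside them for its low-salt reading. For Slc3a2, Slc2a1 and Slc6a6 the low-salt reading lay under the noise floor described below. Their ratios are bounds whose direction is fixed, so these genes cannot be ranked by them. The upstream sequences of all these genes are shown as background and do not bear on the array readings. Slc2a4 had no upstream sequence in the source used and is not shown. Each is the 250 bases before the RefSeq transcript start in GRCr8, 5′ to 3′ on the strand of the gene, and Slc3a2 has 2 annotated starts. Capitals mark a GC box (GGGCGG) or the core of the hypoxia response element (ACGTG), on either strand; a Slc16a1 run of capitals is the E-box CACGTG, which holds that core on both strands.
Slc2a1 (chr5:138002272-138002521, plus strand): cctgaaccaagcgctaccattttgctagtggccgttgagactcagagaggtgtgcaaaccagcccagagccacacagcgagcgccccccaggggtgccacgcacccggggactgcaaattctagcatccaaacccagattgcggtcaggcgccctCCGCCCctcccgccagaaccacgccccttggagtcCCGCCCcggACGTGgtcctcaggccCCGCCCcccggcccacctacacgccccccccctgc
Slc16a1 (chr2:194812410-194812659, plus strand): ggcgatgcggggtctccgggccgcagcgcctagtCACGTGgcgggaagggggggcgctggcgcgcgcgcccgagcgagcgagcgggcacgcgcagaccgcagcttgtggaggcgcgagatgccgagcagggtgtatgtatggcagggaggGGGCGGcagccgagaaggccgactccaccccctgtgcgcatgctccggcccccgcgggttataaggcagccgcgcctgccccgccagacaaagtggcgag
Slc3a2, start 1 (chr1:215039671-215039920, minus strand): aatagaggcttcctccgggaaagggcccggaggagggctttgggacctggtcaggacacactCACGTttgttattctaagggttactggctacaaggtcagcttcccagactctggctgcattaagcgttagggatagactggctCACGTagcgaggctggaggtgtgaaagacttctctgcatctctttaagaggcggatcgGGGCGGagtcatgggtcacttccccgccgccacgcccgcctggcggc
Slc3a2, start 2 (chr1:215048065-215048314, minus strand): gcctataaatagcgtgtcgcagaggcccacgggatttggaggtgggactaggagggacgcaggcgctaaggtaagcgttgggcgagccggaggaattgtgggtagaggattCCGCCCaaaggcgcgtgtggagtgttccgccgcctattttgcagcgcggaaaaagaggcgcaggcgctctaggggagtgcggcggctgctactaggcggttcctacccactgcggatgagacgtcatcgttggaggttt
Slc6a6 (chr4:125752252-125752501, plus strand): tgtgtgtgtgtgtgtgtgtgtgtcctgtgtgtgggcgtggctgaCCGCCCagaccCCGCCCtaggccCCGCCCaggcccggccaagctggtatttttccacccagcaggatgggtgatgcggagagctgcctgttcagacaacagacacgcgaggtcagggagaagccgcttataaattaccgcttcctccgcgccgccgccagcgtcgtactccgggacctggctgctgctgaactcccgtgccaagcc

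GC boxes were present in all 5 of these windows, with 3 matches in Slc2a1, 3 in Slc6a6 and 1 in each of the others. The core ACGTG was found in Slc2a1, Slc16a1 and the first Slc3a2 window, and neither in the second Slc3a2 window nor in Slc6a6. Both motifs are common: a GC box was in 30.5% of all 33465 windows of this length and in 46.7% of the 107 windows of 96 solute carrier genes, and ACGTG in 16.6% and 29.9%. The E-box CACGTG was in 5.59% of all windows and 10.3% of the solute carrier windows. TATAAA, in 12.9% and 8.41%, was found in the second Slc3a2 window and in Slc6a6. The amino acid response core TGATGNAA, in 3.4% and 1.87%, was in none of the 5. A match is a string of letters and was not tested as a binding site.

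Most solute carrier transcripts were dim in this tissue. The deposited intensities include values below 0, and the 95th percentile of the size of those values, 126.4, was used as a noise floor. A gene counts as measured if its brightest probe set reached that floor on at least 1 array. By this rule 23 of the 114 solute carrier genes were measured (20.2%), against 1216 of all 4736 named genes (25.7%). Of the 23, 17 reached the floor on both arrays. Another 4 reached it on the high-salt array alone (Slc2a1, Slc3a2, Slc6a6 and Slc29a1) and 2 on the low-salt array alone (Slc4a7 and Slc18a3). Those 6 entered through 1 diet, which fixes their direction, so their ratios are bounds. On both arrays, 41 of the 169 probe sets read below 0.

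**Figure D1:**
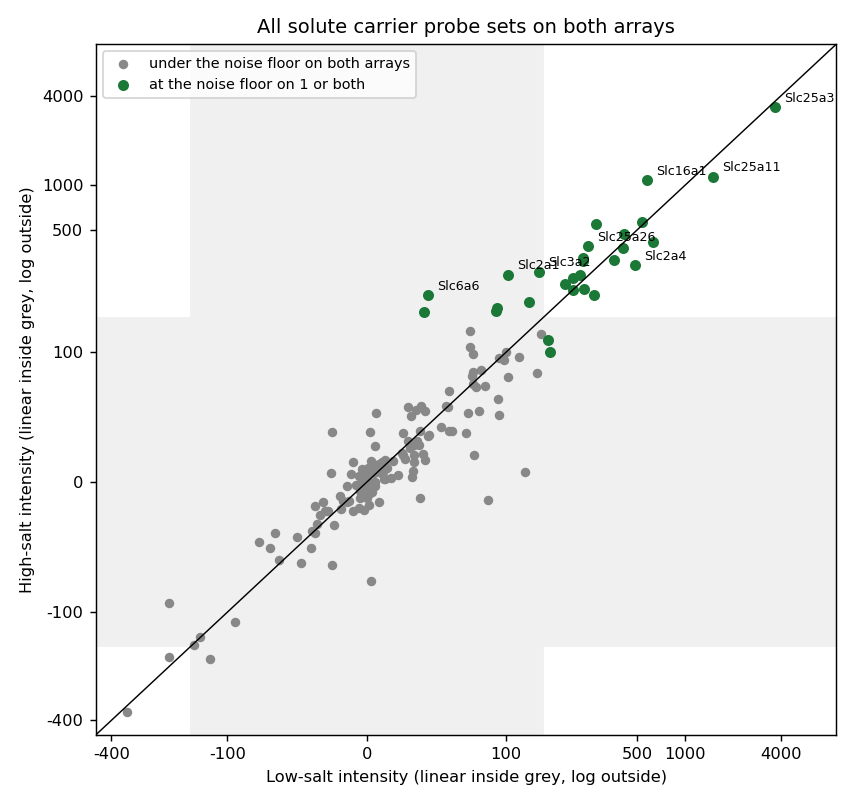
Intensity of all 169 solute carrier probe sets on the low-salt array (horizontal axis) and the high-salt array (vertical axis), in arbitrary units, linear inside the grey bands that run to 126.4 on either side of 0 and logarithmic outside them; the line marks equal values. The 28 green probe sets reached the noise floor on 1 or both arrays, and the 141 grey ones, most of them near 0, did not.

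Ratios were taken as high salt over low salt after values under the noise floor were raised to it. Of the 23 measured solute carrier genes, 1 was higher in the high-salt heart by 2-fold or more (Slc3a2) and none was lower by as much. Over all 1216 measured genes, 3.54% passed 2-fold upwards and 1.89% downwards (43 and 23 genes, or 52 and 14 with median scaling). Of the Slc genes left out of the set, Slc25a20 read 122.7 on high salt and 259.0 on low salt, at least 2.05-fold lower. Slc4a1 read 264.6 and 119.8, at least 2.09-fold higher. Each reached the floor on 1 array, which fixes its direction. Slc8a1, Slc25a4 and Slc25a5 were within 1.5-fold. At 1.5-fold, 4 solute carrier genes were higher (Slc3a2, Slc2a1, Slc16a1 and Slc25a26) and 1 lower (Slc2a4), and 18 were within 1.5-fold. That is 17.4% and 4.35% of the measured solute carrier genes, beside 9.29% and 9.46% of all measured genes; Slc3a2 and Slc2a1 are among the 6 whose ratios are bounds. Among the 17 that reached the floor on both arrays, 2 were 1.5-fold higher and 1 lower, beside 8.56% of all such genes in each direction. The median log2 ratio was 0.18 (quartiles -0.14 and 0.48) over the 23 genes and 0.08 over the 17, against -0.04 and -0.05 over all genes measured in the same way. It was -0.0002 over 36 solute carriers with the floor at the 90th percentile (-0.05 over all genes) and -0.10 over 76 at the lower floor of 10.9 described below (-0.09 over all genes), so the median has no settled direction. As a partial measure of error, log2 ratios of probe sets of the same gene differed with an SD of 0.22 (231 genes above the floor on both arrays), which holds no variation between animals.

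**Figure D2:**
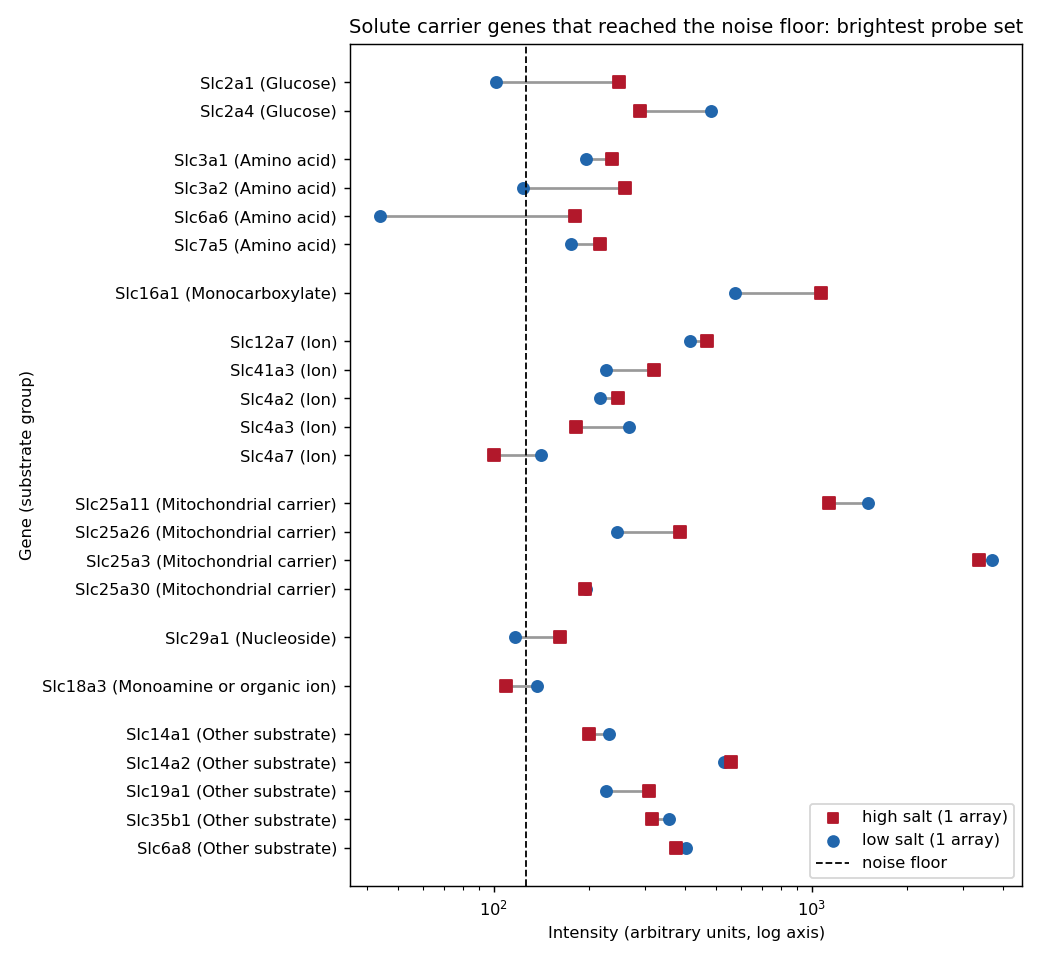
Intensity of the brightest probe set of each of the 23 measured solute carrier genes on the high-salt array (red squares) and the low-salt array (blue circles), in arbitrary units on a log axis, grouped by substrate; the dashed line is the noise floor of 126.4. Levels of different genes come from different probes and are not comparable. The widest gaps are those of Slc6a6, Slc2a1, Slc3a2 and Slc16a1. Of these, Slc6a6, Slc2a1 and Slc3a2 have low-salt points under the floor, so the width of their gaps cannot be read and their ratios are bounds.

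Of 7 glucose and hexose transporters, Slc2a1 and Slc2a4 were measured. Slc2a1, the basal transporter, read 247.1 on high salt and 101.7 on low salt, at least 1.95-fold higher with that floor as the low-salt value; it reached the floor on the high-salt array alone, which fixes its direction. Its second probe set read 38.3 and -25.0, both under the floor, and gives no order. Slc2a4, the insulin-responsive transporter, read 288.3 on high salt and 483.0 on low salt, 1.68-fold lower. A second Slc2a4 probe set read 148.1 and 93.7, a bound of 1.17-fold higher. It reached the floor on the high-salt array alone, which fixes its direction. The median over both Slc2a4 probe sets was a log2 ratio of -0.26. In the brightest probe sets the log2 ratio of Slc2a1 exceeded that of Slc2a4 by at least 1.71. That difference rests on the bound of fixed direction for Slc2a1 and on the brighter Slc2a4 probe set. With the median over probe sets the log2 ratios were 0.97 for Slc2a1 and -0.26 for Slc2a4. The names of all 3 probe sets of these genes that reached the floor end in _s_at, which marks probes that may also match other transcripts.

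The other 5 hexose transporters were under the noise floor on both arrays in every probe set. They were the liver-type carrier Slc2a2 (0.2 and 0.7, high salt first), the neuronal-type carrier Slc2a3 (54.8 and 41.9), the fructose carrier Slc2a5 (116.5 and 74.4), and the sodium-coupled carriers Slc5a1 (96.3 and 109.5) and Slc5a2 (-12.4 and -5.1). Their order on the 2 arrays cannot be read.

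Slc16a1 (MCT1), which carries lactate, pyruvate and ketone bodies, was the only monocarboxylate transporter of 6 that was measured. Its brighter probe set read 1074.2 on high salt and 573.8 on low salt, 1.87-fold higher. The other probe set read 547.4 and 273.7, 2-fold higher, so both showed the same direction at about the same size. Both were above the noise floor on both arrays. Slc16a3 (MCT4), the exporter of glycolytic muscle, read 75.3 and 76.6, and Slc16a7 (MCT2) read 12.1 and 3.5. These and Slc16a6, Slc16a8 and Slc16a12 stayed under the floor.

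Of 21 amino acid transporters, 4 were measured: Slc3a2 and Slc6a6 through the high-salt array alone, which fixes their direction, and Slc7a5 and Slc3a1 on both arrays. Slc3a2, the heavy chain that carries several exchangers to the membrane, read 259.4 on high salt and 123.8 on low salt, at least 2.05-fold higher. Its second probe set read 140.8 and 92.9, a bound of 1.11-fold. Slc7a5 (LAT1), a light chain that pairs with it to take up leucine and other large neutral amino acids, read 215.5 and 174.5, 1.23-fold higher. Slc3a1, the other heavy chain of this family, known from kidney and gut, read 236.1 and 195.8, 1.21-fold higher. Every probe set of Slc3a2, Slc7a5 and Slc3a1 has a name ending in _s_at, so each may also match other transcripts. Without such probe sets these genes have no ratio. The log2 ratios of Slc7a5 and Slc3a1, 0.30 and 0.27, were close to the SD between probe sets, and 432 of all 958 genes that reached the floor on both arrays had a ratio above 1.

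Slc6a6, which takes up taurine, an abundant free amino acid of heart muscle, read 180.0 on high salt and 44.0 on low salt. Because the low-salt reading lay under the noise floor, the ratio is a bound of at least 1.42-fold, from 1 probe set. The 17 amino acid transporters that were not measured read between -351.0 and 103.9. They were the glutamate carriers Slc1a1, Slc1a2, Slc1a3 and Slc1a6, the cationic carriers Slc7a1, Slc7a2 and Slc7a3, the vesicular carriers Slc17a7 and Slc32a1, and Slc6a5, Slc6a7, Slc6a9, Slc6a11, Slc6a13, Slc6a15, Slc6a17 and Slc6a18.

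Of 30 ion transporters, 5 were measured, and none reached 1.5-fold. Both Slc4 chloride-bicarbonate exchangers in this set, which acidify the cell, were measured on both arrays. Slc4a3 (AE3), the heart and brain form, read 181.2 on high salt and 266.0 on low salt, 1.47-fold lower. Slc4a2 (AE2), the widely expressed form, read 246.4 and 216.0, 1.14-fold higher, a log2 ratio of 0.19 that is smaller than the SD between probe sets, and a second probe set of it read -107.9 and -94.6. The sodium-bicarbonate cotransporter Slc4a7, which works against acid load, read 100.1 and 141.0, at least 1.12-fold lower. It reached the floor on the low-salt array alone, which fixes its direction.

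Slc41a3, of a magnesium transporter family, read 320.4 on high salt and 226.1 on low salt, 1.42-fold higher. The potassium-chloride cotransporter Slc12a7 (KCC4) read 469.7 and 413.7, 1.14-fold higher, a log2 ratio of 0.18 that is smaller than the SD between probe sets. The other 25 ion transporters read between -125.5 and 95.2 in their brightest probe sets. Among them were the sodium-proton exchangers Slc9a2, Slc9a3 and Slc9a4, the sodium-calcium exchangers Slc8a2 and Slc8a3, Slc24a2 and the cation-chloride cotransporters Slc12a1, Slc12a2, Slc12a3, Slc12a4 and Slc12a5. The rest were carriers of phosphate (Slc17a1, Slc20a2, Slc34a1), sulphate (Slc13a1, Slc26a1, Slc26a2), zinc (Slc30a1, Slc30a2, Slc30a4), iron (Slc11a2, Slc40a1), magnesium (Slc41a2), bicarbonate (Slc4a4) and iodide (Slc5a5).

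**Figure D3:**
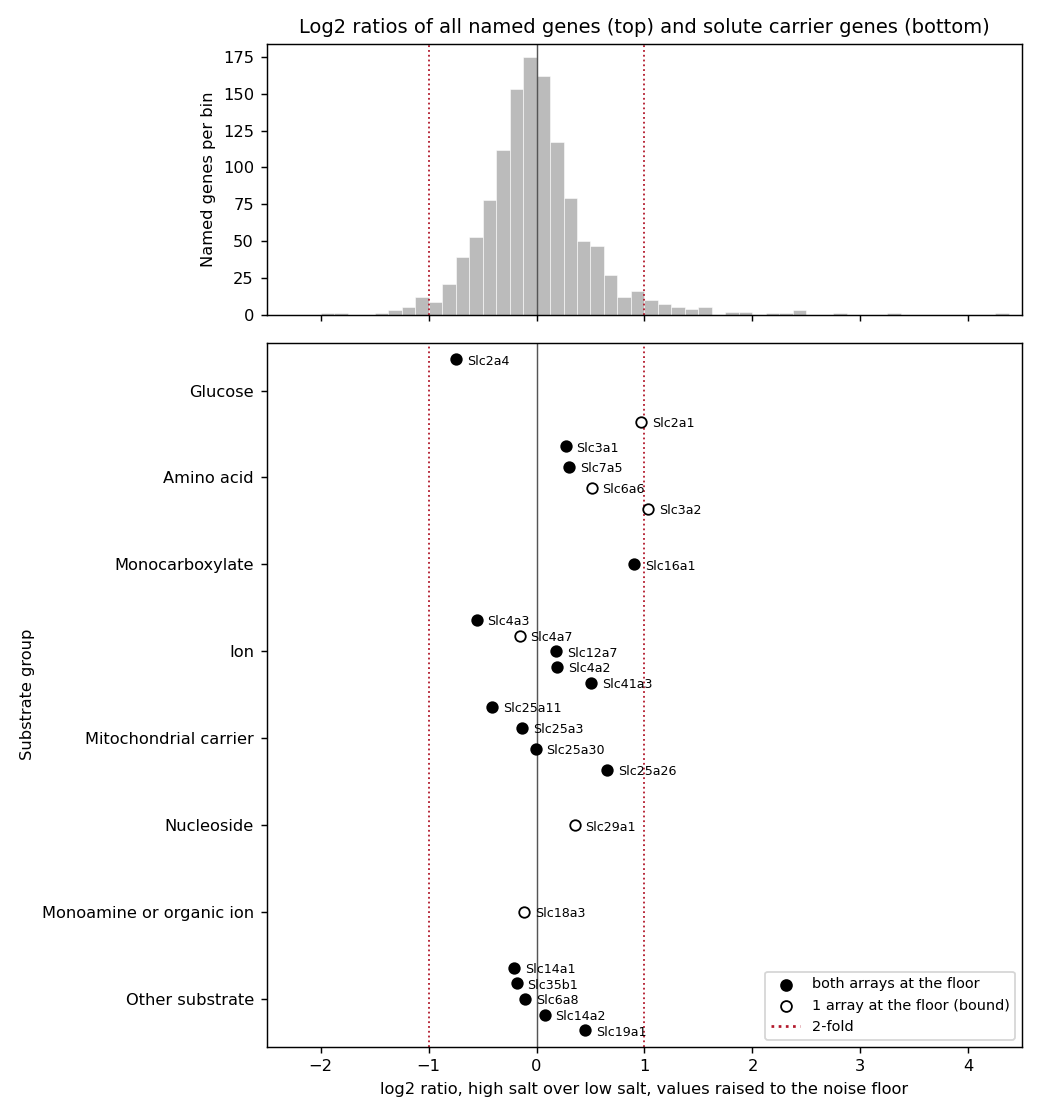
Log2 ratio of the high-salt to the low-salt intensity, after raising values to the noise floor, for all 1216 measured genes (top, number of genes per bin) and for the 23 measured solute carrier genes by substrate group (bottom); filled points reached the floor on both arrays, open points on 1, so their ratios are bounds. The dotted lines mark 2-fold, and Slc3a2 at 1.04 is the one of these 23 genes past it.

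Mitochondrial carriers were the group with the largest share measured, 4 of 9, all on both arrays. Slc25a3, which brings in the phosphate used to make ATP, read 3373.3 on high salt and 3690.9 on low salt, 1.09-fold lower. That log2 ratio, -0.13, was smaller in size than the SD between probe sets. Slc25a11, the oxoglutarate-malate carrier of the malate-aspartate shuttle, read 1135.9 and 1506.8, 1.33-fold lower. Its other probe set read 413.0 and 625.2, a log2 ratio of -0.60 beside -0.41, so both were lower. Slc25a26, which imports S-adenosylmethionine, went the other way, at 386.0 and 244.8, 1.58-fold higher. Slc25a30 read 194.1 and 195.1, with a log2 ratio of -0.01 that turned to 0.08 with median scaling. The citrate carrier Slc25a1 and Slc25a10, Slc25a14, Slc25a17 and Slc25a23 were not measured, at -12.4 to 80.5.

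Of 4 nucleoside transporters, Slc29a1 (ENT1), which takes up adenosine, was measured, on the high-salt array alone, which fixes its direction. It read 161.5 on high salt and 116.6 on low salt, at least 1.28-fold higher. Slc29a2, Slc28a1 and Slc28a2 read between 17.9 and 101.2. Of 14 monoamine and organic ion transporters, Slc18a3, the vesicular acetylcholine carrier of cholinergic nerves, reached the floor. It did so on the low-salt array alone, which fixes its direction, at 109.5 and 136.6, at least 1.08-fold lower. Its second probe set read 94.1 and 98.7. Slc18a3 thus barely reached the noise floor, and none of the 8 nerve and glia markers on the array reached it (Mbp, Nefm, S100b and Th were at or below 0 on both arrays). The monoamine carriers Slc6a2, Slc6a3, Slc6a4, Slc18a1 and Slc18a2 and the Slc22 genes Slc22a2, Slc22a3, Slc22a5, Slc22a6, Slc22a7, Slc22a13, Slc22a18 and Slc22a25 stayed under it.

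Among the 23 genes with other substrates, 5 were measured on both arrays and all were within 1.5-fold. Slc19a1, the reduced folate carrier, read 308.7 on high salt and 226.0 on low salt, 1.37-fold higher, and its second probe set, on the same sequence entry, read 138.2 and 41.2. That one reached the floor on high salt alone, a bound of 1.09-fold whose direction the floor fixes. Without probe sets that may share sequence it is the one left, and the log2 ratio of Slc19a1 goes from 0.45 to 0.13. Slc6a8, which takes up creatine for the phosphocreatine buffer of muscle, read 374.9 and 402.6, 1.07-fold lower. Slc35b1, a nucleotide carrier of the endoplasmic reticulum, read 313.7 and 356.6, 1.14-fold lower. A second probe set of Slc35b1 read 113.8 and 124.8, under the floor. The log2 ratios of Slc6a8 and Slc35b1, -0.10 and -0.18, were smaller in size than the SD between probe sets.

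The urea transporters Slc14a1 and Slc14a2 were measured as well. Slc14a1, found on red cells and endothelium, read 199.4 and 230.5, 1.16-fold lower, in a probe set that can share sequence, and 13.8 and 8.9 in the other. The log2 ratio of the brighter one, -0.21, was smaller in size than the SD between probe sets. Slc14a2, known as a kidney gene, read 559.7 and 530.8 in the first probe set but 0.5 and -1.9 in the second. The probe sets of Slc14a2 thus disagree on whether the transcript reached the noise floor. The other 18 genes, among them the fatty acid transport proteins Slc27a1 and Slc27a2, the bile acid carriers Slc10a1 and Slc10a2 and the peptide carriers Slc15a1, Slc15a2 and Slc15a4, read between -173.3 and 122.2. The rest were Slc5a3, Slc5a6, Slc13a2, Slc13a3, Slc23a3, Slc35a1, Slc35f6, Slc37a1, Slc37a4, Slc44a4 and Slc52a3.

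**Figure D4:**
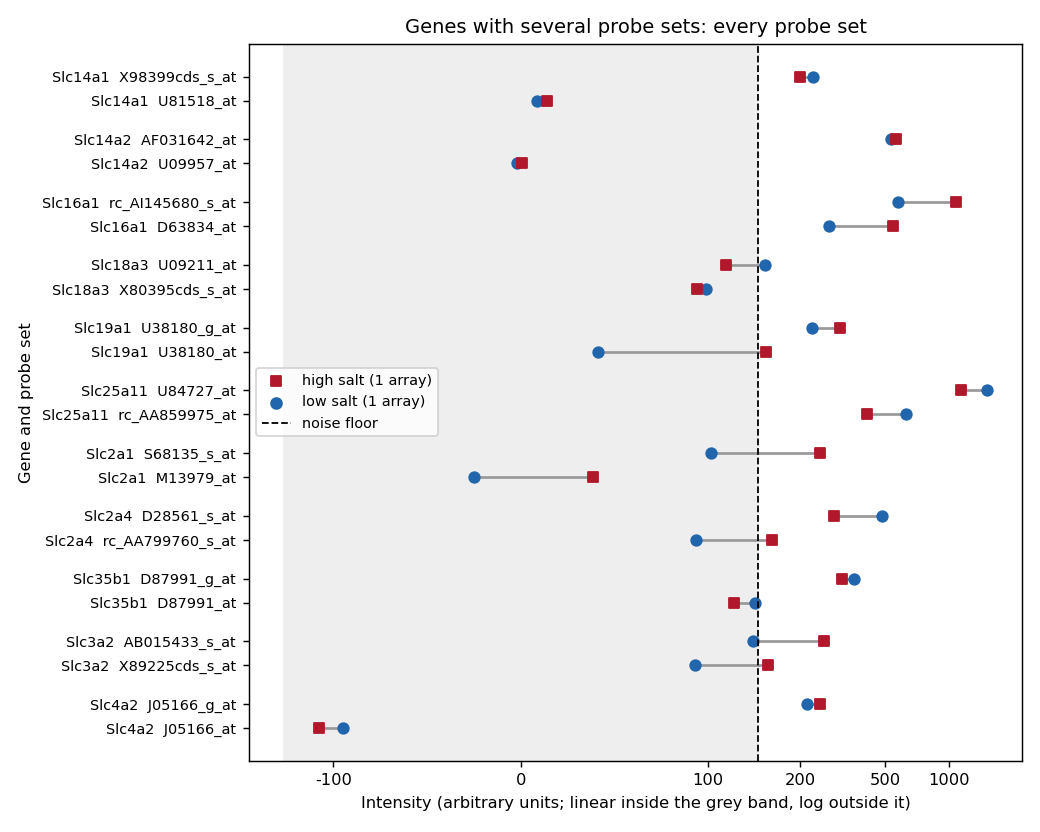
Every probe set of the 11 measured solute carrier genes that have several, with the high-salt (red squares) and low-salt (blue circles) intensity in arbitrary units, linear inside the grey band that runs to 126.4 on either side of 0 and logarithmic above it. Both probe sets of Slc16a1 lie above the dashed noise floor and are higher in high salt, and both of Slc25a11 are lower. The pair of Slc2a4 points in opposite directions, but its second probe set reached the floor on high salt alone, which fixes that direction.

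Probe sets of the same gene could be compared for 11 of the 23 measured genes, since the other 12 had 1 each. In 6 of the 11, a single probe set reached the noise floor. In the other 5 (Slc2a4, Slc3a2, Slc16a1, Slc19a1 and Slc25a11) 2 did. Only for Slc16a1 and Slc25a11 did both probe sets reach it on both arrays, and each of those pairs shared its direction. The second probe sets of Slc2a4, Slc3a2 and Slc19a1 reached it on high salt alone, which fixes their direction as higher. The opposite directions of the Slc2a4 pair, and the shared ones of Slc3a2 and Slc19a1, therefore cannot be read.

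Under the noise floor, the 5 largest ratios were taken against a lower floor of 10.9, the 40th percentile of all values. Slc22a6, an organic anion carrier best known from kidney, read 8.0 on high salt and 113.5 on low salt. Slc4a4, a sodium-bicarbonate cotransporter, read 53.2 and 6.4. Slc27a1, which takes up and activates long-chain fatty acids, read 21.3 and 77.3. The citrate carrier Slc25a1 read -12.4 and 38.3, and the glutamate carrier Slc1a2 8.4 and 33.1. At this floor 4 of 76 solute carrier genes passed 2-fold upwards and 6 downwards, beside 7.3% and 7.27% of all 3451 genes. All 6 of the lower genes were under the noise floor, where values have no reliable order.

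Genes that work with these carriers were read from a list of 41, of which 30 were on the array and 17 were measured, all on both arrays. None of the 17 was 2-fold higher or lower, beside 3.54% and 1.89% of all measured genes, and their median log2 ratio was -0.12, beside -0.04 over all. Bsg, the basigin chaperone that brings Slc16a1 to the membrane, read 1940.2 on high salt and 1926.3 on low salt, and Emb, a related chaperone, 248.0 and 175.7. The lactate dehydrogenase gene Ldhb read 3126.4 and 3762.3, and Mpc1, of the mitochondrial pyruvate carrier, 2786.7 and 3257.2. Thus Slc16a1 was 1.87-fold, Emb 1.41-fold and Bsg 1.01-fold higher, while Ldhb was 1.20-fold and Mpc1 1.17-fold lower.

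Hexokinases trap the glucose that enters. Hk1, the widely expressed form, read 526.4 on high salt and 362.2 on low salt, 1.45-fold higher, and Hk2, the insulin-responsive muscle form, 194.8 and 214.4, 1.10-fold lower. Txnip, which restrains glucose uptake, read 1393.0 and 1737.8. The vesicle proteins Vamp2 and Vamp3, which act in Slc2a4 traffic, read 131.1 and 160.6, and 243.1 and 271.3. The muscle creatine kinase gene Ckm read 3062.3 and 4279.7, 1.40-fold lower, beside 1.07-fold lower for Slc6a8. Glul, the glutamine synthetase gene, read 782.4 and 601.9. The sodium pump subunit Atp1b1, part of the gradient that drives sodium-coupled carriers, read 785.9 and 1070.1, and its regulator Fxyd1 2208.9 and 2263.4. The other measured partners, Akt1, Car3, Cav3 and Ckb, had log2 ratios between -0.12 and 0.24.

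Markers of cell types were read beside these values. Sums over a list add raw readings of different probes, so the brightest genes weigh most and a sum does not measure cell content. Heart muscle markers reached the floor for 9 of 10 genes on both arrays (all but Ryr2), with summed intensities of 49518.3 in high salt and 51884.0 in low salt. Of 4 red cell markers 3 were measured. Hbb reached the floor on both arrays, at 6982.3 on high salt and 2910.5 on low salt, 2.40-fold higher. Alas2 (698.0 and 104.5) and Slc4a1 (264.6 and 119.8) reached it on the high-salt array alone, which fixes their direction. All 3 passed 2-fold upwards, beside 3.54% of all measured genes, the sums of the list were 7820.9 and 3050.0, and Gata1 was at or below 0 on both arrays. Their part in the Slc2a1 reading was not tested. Of 9 fibroblast markers 6 were measured and 1 was at least 2-fold higher, beside 3.54% of all measured genes. It was S100a4 (461.8 and 99.8), which reached the floor on the high-salt array alone, so its direction is fixed. The list sums were 4358.5 and 3223.6, with Tcf21 at or below 0. Of 8 leukocyte markers 2 were measured, both on both arrays. Lyz2 (458.6 and 130.4) was at least 2-fold higher and Cd74 (507.3 and 1144.4) at least 2-fold lower, beside 3.54% and 1.89% of all measured genes. The list sums were 1108.8 and 1316.7, with Cd8a at or below 0. Of 7 adipocyte markers 4 were measured and 1 was at least 2-fold lower, beside 1.89% of all measured genes. It was Aqp7 (55.6 and 478.1), which reached the floor on the low-salt array alone, so its direction is fixed. The list sums were 4044.8 and 4809.8, with Plin1 at or below 0. The sums were 296.7 and 262.5 for 4 endothelial markers, and 460.1 and 376.0 for 6 smooth muscle markers, with 1 of each measured. The part of these cells in the readings of Slc3a2, Slc16a1 and Slc2a4 was not tested.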

How the data were processed

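RNA of 1 high-salt and 1 low-salt rat heart sample was made into biotin-labelled cRNA, per the labels' protocols. The authors deposited 1 linear intensity per probe set and array; which software made it is not given in the sources used here. Since 2% trimmed means of the arrays, 100.2 on both, differed by 0.0030%, the deposited intensity values were used as given. The platform annotation of 2016 gave 1 symbol to 7006 of the 8740 probe sets other than controls, several to 308 and none to 1426; all 114 solute carrier genes matched RefSeq by gene ID under the same symbol. The brightest probe set stood for a gene. Every solute carrier with a probe set at the noise floor is named with its values, and of the rest the 5 largest ratios. Genes, substrate groups and lists were chosen with earlier results of these data known. No test was possible with 1 array per group. The ratio step was tested on simulated arrays, with changes planted only in genes whose low-salt reading was well above the noise floor. Genes with a low-salt reading near or under the floor were not covered. Upstream sequences came from RefSeq GRCr8. Python 3.11.15, numpy 2.4.6, pandas 2.3.3, statsmodels 0.14.6 and matplotlib 3.10.9 were used. Alternatives covered scaling (quantile, median, loess with span 0.4), the floor, several probe sets, probe sets that may share sequence and the fold threshold.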

Additional observations from a re-analysis of the deposited data

How the results depend on the processing

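With 1 array per diet the values carry no replicate error, and the noise floor limits what can be read for 91 of the 114 solute carriers. At 2-fold, median scaling gave 2 higher solute carriers (14 lower genes in all), as did loess (2); the second was Slc2a1 in both. With the noise floor at the 90th percentile there were 3 higher solute carriers and 35 lower genes in all; the median log2 ratio was -0.0002; at the 99th percentile there were 0, with 24 higher and 9 lower genes in all. The lower floor of 10.9 gave 4 higher and 6 lower solute carriers, with a median log2 ratio of -0.10 and 252 higher and 251 lower genes in all. Slc6a6 moved from a log2 ratio of 0.51 to 2.03 there. The median over the probe sets of a gene gave 0 higher solute carriers, with log2 ratios of 0.60 for Slc3a2 and -0.26 for Slc2a4, and each probe set on its own gave 2. Without probe sets that may share sequence the 1 higher solute carrier was Slc16a1 in place of Slc3a2. A 1.5-fold threshold gave 4 higher and 1 lower solute carriers (113 and 115 genes in all), and a 3-fold threshold gave 0 higher (14 and 2 genes in all). Quantile normalization kept these counts within 1.5 times. No paired analysis was possible because each group has 1 array.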

Other observations

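Some related probe sets lay outside the genes described. A probe set annotated to both Muc3, a mucin, and Slc13a2, a dicarboxylate carrier, read 139.7 on high salt and 269.9 on low salt, 1.93-fold lower, while the probe set of Slc13a2 alone read -75.8 and 2.9. A probe set annotated to 2 gene entries with the symbol Slc25a51, a mitochondrial NAD carrier, read 232.8 and 173.3, 1.34-fold higher. The 6 organic anion transporter genes of the separate Slco family (Slco1a1, Slco1a3, Slco1a4, Slco1a5, Slco2a1 and Slco2b1) were all under the noise floor on both arrays, with Slco2b1 at 56.0 and 13.1.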
